A study of Mus musculus with 6 samples.

Results

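Transcripts of 31 genes of the B-cell lineage were followed in RNA from peritoneal macrophage preparations of Tet2-/- and wild-type mice. The genes were chosen by name as genes of B cells, with earlier results of these data known. Of the 31 genes, 30 have a probe set among the 23185 named genes of the arrays (Ighd was not analysed here). The cells came from C57BL/6J mice, 4 days after an intraperitoneal injection of 1 mL of aged 4% Brewer's thioglycollate, an irritant that draws macrophages into the cavity. Both groups were plated without treatment and total RNA was taken 10 h later. The 3 wild-type samples are littermates of the Tet2-deficient mice by the labels' protocols, and the 3 Tet2-/- samples carry a Tet2 deficiency whose allele the labels do not describe further. Each group holds biological replicates 4, 5 and 6. Whether every replicate was its own animal is not stated, and the tests thus weigh differences only against the scatter of these samples. The protocols name isolation from the cavity and plating and no sort, and lymphoid markers are therefore given with the results.

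B cells recognise antigen with a surface immunoglobulin that signals through the paired chains Cd79a and Cd79b. These recruit the kinases Blk and Btk and the adaptor Blnk. The transcription factors Ebf1 and Pax5 set up this programme, and Pou2af1 and Spib act in mature cells. The peritoneal cavity of the mouse is known for its own B cells, the B-1 cells, beside resident macrophages. Several genes of the set, such as Blnk, Btk, Cd24a and Plac8, are also used by myeloid cells.

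Promoter sequence was available for 21 of the 31 genes, in 27 windows from 250 bases before to 50 after a start site, from RefSeq on GRCm38.p6. Motifs that B-lineage factors are known to bind were searched on both strands. They were the core of the EBF site, CCCNNGGG, the octamer ATGCAAAT and the ETS-type core GGAAGT. The ETS-type core was found for 9 of the 21 genes and for 26.5% of all 27025 genes in the table. The 9 were Bank1, Blnk, Btla, Cd5, Cd79a, Cr2, Ebf1, Fcer2a and Vpreb3. The octamer was found for Blnk and Vpreb3, against 1.97% of all genes, and the EBF core for Bank1 and Spib, against 15.4%. No motif contains another. Promoters of Cd79a (chr7:24897247-24897546, plus strand) and Bank1 (chr3:136326017-136326316, minus strand) are shown because both genes were highest on the same arrays. Only exact matches to these 3 patterns were searched, so sites of another form would be missed. Matches are in capitals. The match in Cd79a begins 54 bases before the start, and those in Bank1 begin 62 bases (ETS-type core, opposite strand) and 21 bases (EBF core) before it.
Cd79a: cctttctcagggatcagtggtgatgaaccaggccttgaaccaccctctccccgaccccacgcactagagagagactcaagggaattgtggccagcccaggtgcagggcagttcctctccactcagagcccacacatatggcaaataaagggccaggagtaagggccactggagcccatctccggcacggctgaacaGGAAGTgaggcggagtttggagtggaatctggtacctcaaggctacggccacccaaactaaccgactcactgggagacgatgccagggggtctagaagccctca
Bank1: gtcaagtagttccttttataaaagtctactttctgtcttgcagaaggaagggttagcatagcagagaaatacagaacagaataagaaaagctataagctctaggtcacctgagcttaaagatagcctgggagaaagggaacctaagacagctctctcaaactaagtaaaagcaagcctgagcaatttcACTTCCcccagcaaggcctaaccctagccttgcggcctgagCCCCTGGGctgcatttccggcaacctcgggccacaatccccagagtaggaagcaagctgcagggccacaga

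The deposited values are log2 expression values with array medians from 2.77 to 2.93. Tet2 itself lay at 4.35, 3.74 and 3.79 on the wild-type arrays and at 3.80, 4.05 and 3.67 on the Tet2-/- arrays (replicates 4, 5 and 6 in order, as in all triplets below), so its level did not separate the labels. Where the deleted part lies relative to the probes is not given in the sources used here. For 4 of the 6 samples the title names one genotype and the characteristic field the other, and groups follow the title. These samples are wild-type replicates 5 and 6 and Tet2-/- replicates 4 and 6. Tet2-/- replicate 6 stood apart, with the lowest mean correlation with the other arrays, 0.982 against 0.986 to 0.989. All 12 measured macrophage markers were above background on all 6 arrays. Olfactory and vomeronasal receptors were taken as not expressed in macrophages or B cells, which was not tested. Background was set on each array as the 95th percentile of their 1354 probe sets. It is a stand-in for detection calls and lay between 2.41 and 2.70.

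Of the 30 B-lineage genes, 13 were above background on all 6 arrays, 13 on 1 to 5 arrays and 4 on none. Over all 25206 probe sets, 49.7% were above background on all arrays and 38.3% on none. The 4 genes on no array were Vpreb3, Fcer2a, Cr2 and Ebf1. The number above background was 15, 16 and 17 on the wild-type arrays and 20, 25 and 16 on the Tet2-/- arrays. Tet2-/- replicate 5 thus showed 25 of the 30 genes, while the share of all probe sets above background was between 54.3% and 57.0% on every array. The genes on all 6 arrays included Blnk, Btk, Stap1, Cd24a and Bhlhe41, each over 6 on the log2 scale on every array. In such bulk RNA, more cells of a type and more RNA per cell cannot be told apart.

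**Figure D1:**
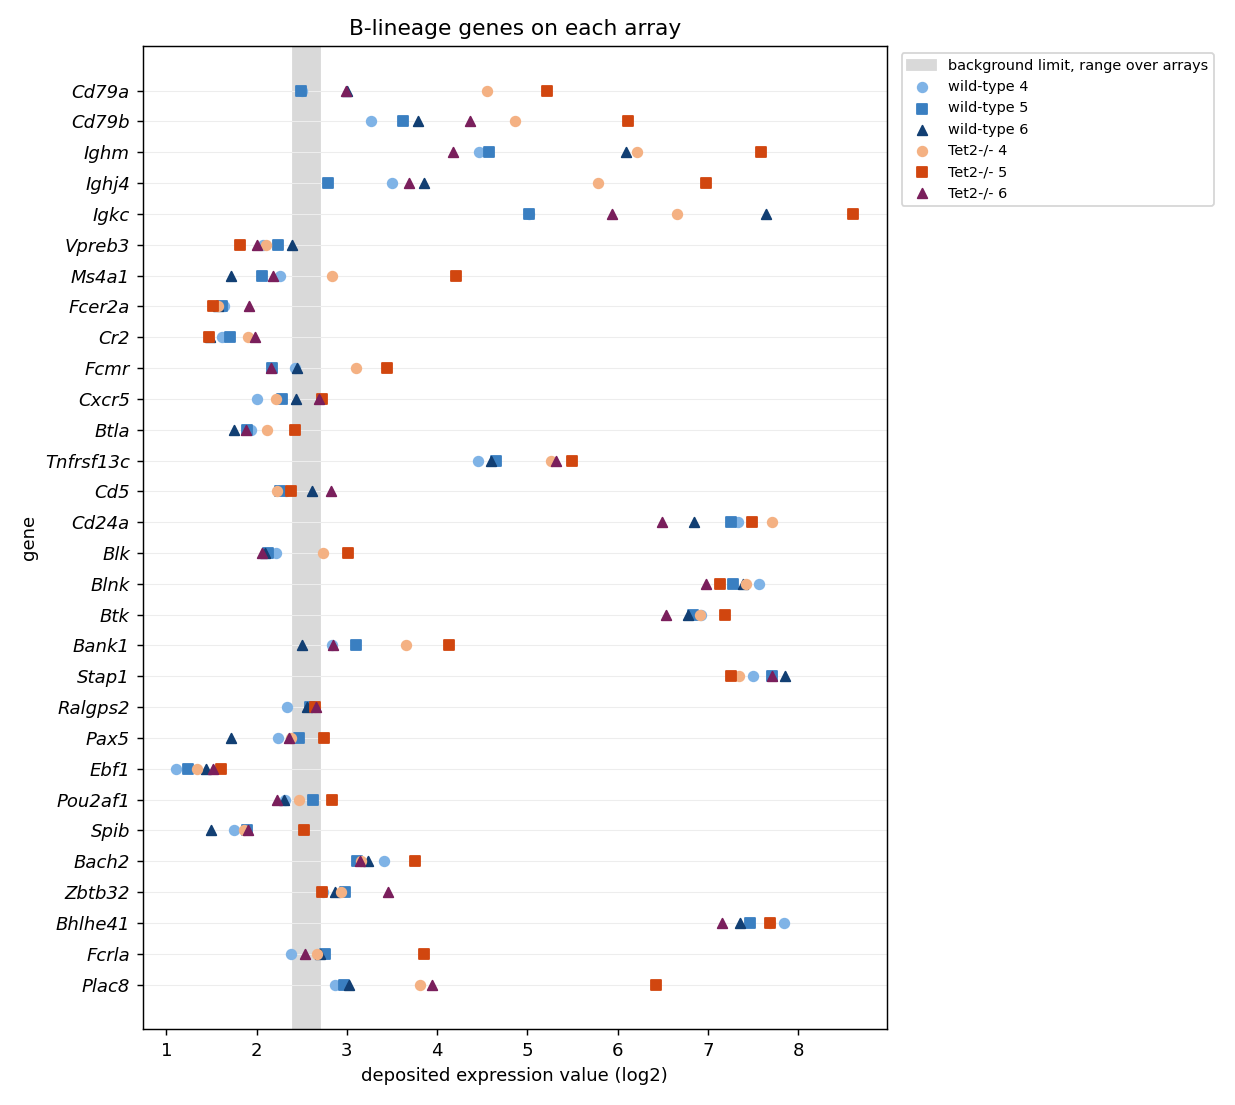
Deposited log2 expression value (x axis) of the 30 measured B-lineage genes (y axis, grouped by role) on each of the 6 arrays, 1 point per array. The grey band spans the background limits of the 6 arrays, 2.41 to 2.70. Tet2-/- replicate 5 lies furthest right for Cd79a, Cd79b, Ighm, Ighj4, Igkc, Ms4a1 and Plac8.

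Ighj4, Plac8, Cd79a and Cd79b had the largest differences of the set, and 3 of these 4 are genes of the antigen receptor. Cd79a, a signalling chain of the receptor, was at 2.50, 2.49 and 3.00 in wild-type and at 4.55, 5.22 and 2.99 in Tet2-/- samples. Replicates 4 and 5 of the Tet2-/- group were far above every wild-type array, and replicate 6 was within the wild-type values. The means were 2.66 ± 0.29 and 4.25 ± 1.14 (SD, n = 3 each), a difference of 1.59 with a 95% confidence interval of 0.52 to 2.66 (limma adjusted p = 0.998). Cd79b, its partner chain, was at 3.27, 3.62 and 3.79 against 4.86, 6.12 and 4.36. Here all 3 Tet2-/- arrays were above all wild-type arrays, by a difference of 1.55 (interval 0.68 to 2.42, limma adjusted p = 0.998).

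Immunoglobulin transcripts were spread more widely within both groups. Ighj4, a joining segment of the heavy chain locus, was at 3.50, 2.79 and 3.85 in wild-type and 5.78, 6.98 and 3.69 in Tet2-/- samples. The difference of 2.10 (interval 0.54 to 3.66, limma adjusted p = 0.998) was the highest of all 25206 probe sets, and Tet2-/- replicate 6 was again among the wild-type values. Ighm, the constant region of IgM, was at 4.46, 4.58 and 6.09 against 6.21, 7.59 and 4.18. Igkc, the kappa light chain constant region, was at 5.02, 5.02 and 7.64 against 6.66, 8.61 and 5.94. For both constant regions wild-type replicate 6 was well above the other wild-type arrays and overlapped the Tet2-/- group, and for Igkc it was the second highest array. Their differences were 0.95 (interval -0.77 to 2.67) and 1.18 (interval -0.64 to 2.99). Wild-type replicate 6 was also the highest wild-type array for Cd79a (3.00) and Ighj4 (3.85), by a smaller margin, and there too it lay above Tet2-/- replicate 6. Jchain, which joins secreted IgM and IgA, was at 1.33, 1.50 and 2.48 against 1.51, 2.42 and 1.53, so the same pair of arrays was highest, although only Tet2-/- replicate 5 passed the background limit. Vpreb3, a chain of B-cell precursors, was under background throughout, at 1.82 to 2.39. Related immunoglobulin segments could share signal, since the positions of these probes are not known here.

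**Figure D2:**
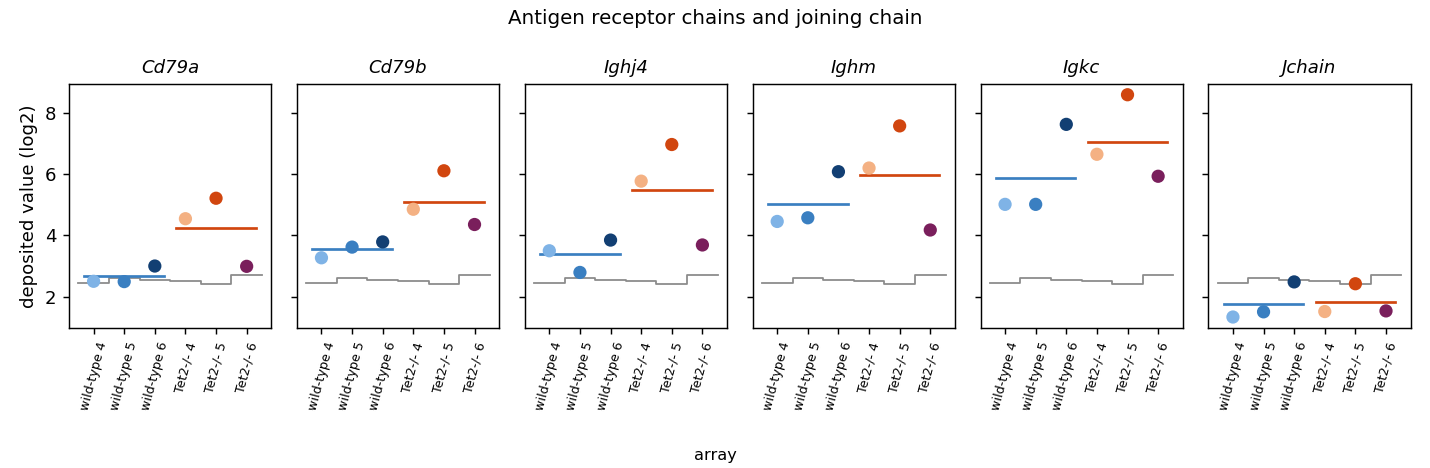
Deposited log2 value (y axis) of 5 antigen receptor genes and Jchain on each array (x axis), 1 point per array. Horizontal bars are group means and the grey steps are each array's background limit. Tet2-/- replicate 5 is highest for the 5 receptor genes, and wild-type replicate 6 is the highest wild-type array for all 6 genes, most clearly for Ighm (6.09) and Igkc (7.64).

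Among the 9 surface receptors all means were higher in Tet2-/- samples, beside 49.2% of all probe sets, with a median difference of 0.28. These 9 include Fcer2a and Cr2, which were under background on every array. Ms4a1, the antigen CD20, was at 2.26, 2.06 and 1.71 in wild-type and 2.84, 4.21 and 2.18 in Tet2-/- samples. It passed the background limit only on Tet2-/- replicates 4 and 5, and the difference was 1.07 (interval 0.09 to 2.04, limma adjusted p = 0.998). Tnfrsf13c, the receptor for the survival factor BAFF, was at 4.45, 4.65 and 4.60 against 5.26, 5.49 and 5.32. Tet2-/- replicate 6 was as high as replicates 4 and 5 here, and the groups did not overlap. Its difference was 0.79 (interval 0.49 to 1.09), with the smallest adjusted p of the set (limma adjusted p = 0.483). Fcmr, the Fc receptor for IgM, was at 2.42, 2.17 and 2.45 against 3.10, 3.45 and 2.16, a difference of 0.56 (interval -0.10 to 1.21). Like Ms4a1 it was above background on Tet2-/- replicates 4 and 5 only.

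The other surface receptors were near or under background or did not follow this order. The follicle-homing receptor Cxcr5 and the inhibitory receptor Btla differed by 0.30 and 0.28, and each was above background on Tet2-/- replicate 5 alone. The complement receptor Cr2 and the low-affinity IgE receptor Fcer2a, genes of follicular and marginal zone B cells, were between 1.47 and 1.98 on every array. Cd5, a marker of B-1a cells and of T cells, was above background on wild-type replicate 6 (2.61) and Tet2-/- replicate 6 (2.82) only. Cd24a, a small anchored glycoprotein of B cells and many other cells, was at 7.33, 7.26 and 6.85 against 7.71, 7.49 and 6.49, and its groups overlapped.

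The receptor-proximal signalling genes divided into a part near background and a part far above it. Blk, a Src-family kinase of B cells, was at 2.21, 2.12 and 2.09 in wild-type and 2.74, 3.01 and 2.06 in Tet2-/- samples, a difference of 0.46 (interval -0.05 to 0.97). Bank1, a scaffold protein of B cells, was at 2.84, 3.10 and 2.50 against 3.66, 4.13 and 2.85, a difference of 0.73 (interval 0.05 to 1.42, limma adjusted p = 0.998). Both were high on Tet2-/- replicates 4 and 5 and inside the wild-type values, or just under them, on replicate 6. Btk, the Tec-family kinase, was at 6.93, 6.84 and 6.78 against 6.91, 7.19 and 6.54, a difference of 0.03. The adaptors Blnk and Stap1 differed by -0.23 and -0.25, with intervals of -0.59 to 0.12 and -0.63 to 0.13. These 3 genes, far above background on every array, had overlapping groups. Ralgps2, an exchange factor for Ral, was at 2.34, 2.59 and 2.56 against 2.65, 2.65 and 2.66, so its groups did not overlap, but the difference was 0.16 and every value was near the background limit.

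Of the 7 transcription factors of the B lineage 6 means were higher, beside 49.2% of all probe sets, with a median difference of 0.18. Bach2, Zbtb32 and Bhlhe41 were above background on all arrays. Pax5, the factor that fixes B-cell identity, was at 2.24, 2.47 and 1.72 against 2.38, 2.75 and 2.36 and passed background on Tet2-/- replicate 5 alone. Spib, an ETS factor of B cells, was at 1.75, 1.89 and 1.49 against 1.86, 2.53 and 1.90 and likewise passed on that array alone. Pou2af1, the octamer coactivator, was highest there too, at 2.84, while Ebf1 lay between 1.11 and 1.60 on every array. Bach2, a repressor of plasma cell fate, was highest on Tet2-/- replicate 5 (3.75 against 3.11 to 3.41 on the others). Bhlhe41 and Zbtb32, factors known from B-1 cells, differed by -0.05 and 0.18, and neither was highest on Tet2-/- replicate 5. Bhlhe41 was at 7.85, 7.47 and 7.36 against 7.69, 7.69 and 7.16.

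Fcrla and Plac8 stood out for a high value on a single array. Fcrla, an intracellular Fc receptor-like protein of B cells, was at 2.38, 2.76 and 2.70 in wild-type and 2.67, 3.85 and 2.54 in Tet2-/- samples. Plac8, a small cysteine-rich protein of lymphoid and myeloid cells, was at 2.87, 2.97 and 3.02 against 3.81, 6.43 and 3.94. All 3 Tet2-/- arrays were above all wild-type arrays for Plac8, and replicate 5 was 2.49 above the next array. Its difference was 1.77 (interval 0.45 to 3.10, limma adjusted p = 0.998).

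**Figure D3:**
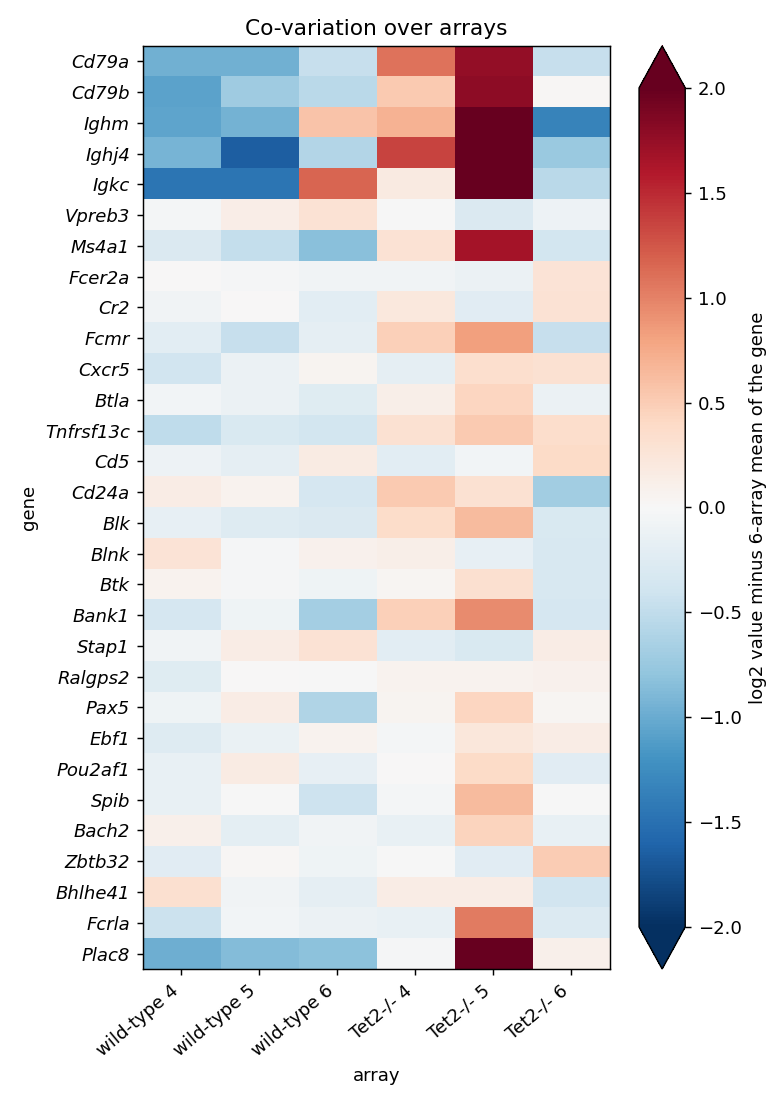
Colour shows each gene's log2 value minus its own mean over the 6 arrays, for 30 B-lineage genes (rows) and 6 arrays (columns), with red above and blue below the mean. The column of Tet2-/- replicate 5 is red for most genes, and Tet2-/- replicate 6 resembles wild-type arrays for Cd79a, Ms4a1, Fcmr, Blk and Bank1.

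No B-lineage gene passed an adjusted p of 0.05, as was the case for 0 of 25206 probe sets (0.0%, limma with Benjamini-Hochberg adjustment). At an unadjusted p under 0.05 there were 7 of 30 genes higher in Tet2-/- samples, Cd79a, Cd79b, Ighj4, Ms4a1, Tnfrsf13c, Bank1 and Plac8, and 0 lower. Over all probe sets 431 (1.71%) were higher and 479 (1.9%) lower by that rule. The mean was higher for 26 of 30 genes, against 49.2% of all probe sets, and Vpreb3, Blnk, Stap1 and Bhlhe41 were the 4 exceptions. The median difference over the 30 genes was 0.29, beside 0.00 over all probe sets. All 3 Tet2-/- arrays lay above all wild-type arrays for 4 genes, Cd79b, Tnfrsf13c, Ralgps2 and Plac8, where 3.33% of all probe sets did. No gene lay wholly below, against 4.07%. These counts are a description, with no test of the set, and the set was chosen with earlier results of these data known.

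**Figure D4:**
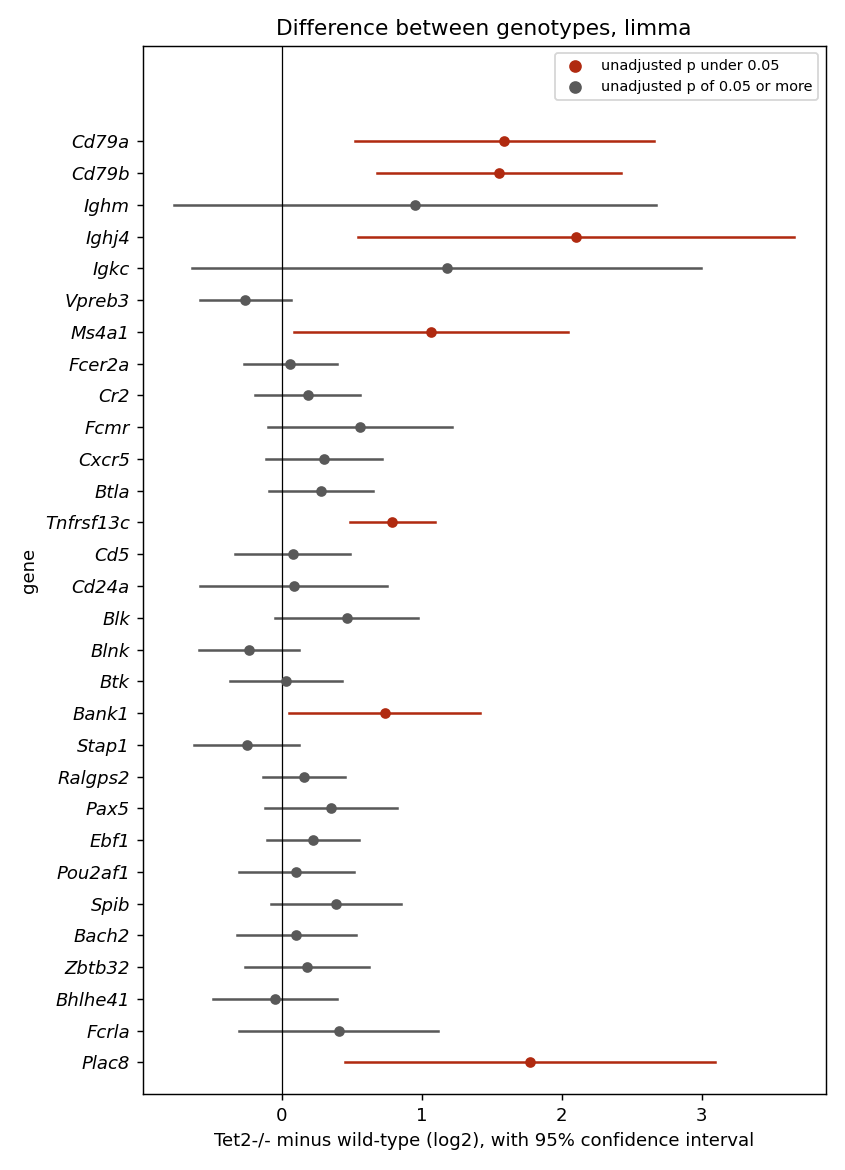
Difference of mean log2 values, Tet2-/- minus wild-type (x axis), with its 95% confidence interval from limma for the 30 B-lineage genes (y axis), n = 3 arrays per group. Red marks the 7 genes with an unadjusted p under 0.05, and no gene passed after adjustment over all probe sets.

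Tet2-/- replicate 5 was the highest array for 20 of the 30 measured genes (66.7%), and Tet2-/- replicate 4 was the second highest for 13 (43.3%). Over all 25206 probe sets those arrays were highest and second highest for 14.0% and 16.7%. Among the 26 genes above background on 1 or more arrays they were so for 19 and 12, beside 19.2% and 18.6% of such probe sets. Tet2-/- replicate 6 was the highest array for 5 of the 30 genes and the lowest for 8, beside 29.5% and 19.9% of all probe sets. The order replicate 5 over replicate 4 over replicate 6 within the Tet2-/- group held for 15 of the 30 genes, against 16.2% of all probe sets. For those above background on 1 or more arrays it held for 15 of 26 genes, against 22.3% of such probe sets. Relative to each gene's 6-array mean, the median of the 30 genes was -0.18, -0.095 and -0.17 on the wild-type arrays and 0.0925, 0.43 and -0.14 on the Tet2-/- arrays. Replicate 6 of the Tet2-/- group, whose characteristic field names wild-type, thus lay among the wild-type arrays by that median. Tet2-/- replicate 4, with the same entry in that field, lay above them.

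Single arrays changed both counts and calls. Without Tet2-/- replicate 6, Cd79a differed by 2.22 (limma adjusted p = 0.0307) and Ighj4 by 3.00 (limma adjusted p = 0.0406), and these were the only B-lineage calls after adjustment under any setting tried, among 19 probe sets called there. In that refit 13 of 30 genes were higher at an unadjusted p under 0.05, beside 4.96% of all probe sets, and Stap1 was lower. Without Tet2-/- replicate 5 the number was 5, beside 1.82%, and Ms4a1, Ighm and Plac8 differed by 0.50, 0.15 and 0.92. Without wild-type replicate 6, Ighm and Igkc differed by 1.47 and 2.05. Cd79a, Cd79b, Tnfrsf13c and Plac8 kept an unadjusted p under 0.05 in all 6 refits that left out 1 array, and Ighj4 in 5 of 6 (not without wild-type replicate 5). With array weights, which gave Tet2-/- replicate 6 the lowest weight of the 6, 11 genes were higher at that level, beside 4.12% of all probe sets.

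Grouping by the genotype characteristic instead of the title put wild-type replicates 5 and 6 with Tet2-/- replicate 5. It put Tet2-/- replicates 4 and 6 with wild-type replicate 4. By that grouping 0 of 30 genes were higher at an unadjusted p under 0.05 (0.639% of all probe sets were) and the median difference was 0.11. Tnfrsf13c then differed by -0.10. No value here settles which label is right.

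Other B-cell genes were read from lists of their own. Over all probe sets 49.2% of means were higher in Tet2-/- samples. Of 12 measured B-cell genes not among the 31, 11 means were higher and 1 lower, with a median difference of 0.17. The lower one was Cd22, an inhibitory receptor of B cells, at 6.21, 6.15 and 6.07 in wild-type and 5.50, 5.29 and 5.23 in Tet2-/- samples. Its groups did not overlap and its difference of -0.80 (interval -1.11 to -0.50, limma adjusted p = 0.483) ran against the other genes of the list. Ly6d, Cd72 and Fcrl5, named here after their values were seen, were higher by 0.90, 0.67 and 0.50. The groups of Cd72 and Fcrl5 did not overlap, while those of Ly6d did. Fcrl5 passed background on the Tet2-/- arrays only. Ly6d, an early B-lineage surface protein, followed the order of Cd79a on the Tet2-/- arrays (4.05, 4.46 and 3.65), whereas Cd72, an inhibitory coreceptor, was at 6.15, 5.84 and 5.89. Of 15 further signalling genes, all above background on all arrays, 11 were higher and 4 lower, with a median of 0.11. Of 5 early B-cell genes, Rag1, Rag2 and Dntt were under background on every array. The other two, the surrogate light chain genes Vpreb2 and Igll1, were above it on all arrays, at 5.48 to 6.03 and 2.56 to 3.53, with overlapping groups. Of 12 plasma cell genes, 10 means were higher (median 0.11), beside 49.2% of all probe sets. Among those 10 were Ighg1, Ighg2c, Ighg3, Igha, Tnfrsf17 and Derl3, all under background on every array. Prdm1, Xbp1, Sdc1 and Mzb1, named after their values were seen, were above it on all 6 arrays. Mzb1, a chaperone of immunoglobulin in B and plasma cells, was at 2.66, 2.79 and 2.88 against 3.00, 4.01 and 3.29, and its groups did not overlap (difference 0.66). None of these genes passed after adjustment.

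Markers of other cells were set beside these values. Of 15 T and NK cell markers, 10 means were higher and 5 lower (median 0.03), where 49.2% of all probe sets were higher. Their summed log2 level was 34.98 to 36.24 on the wild-type arrays and 35.50 to 38.97 on the Tet2-/- arrays, highest on replicate 6 and not on replicate 5. Tet2-/- replicate 6 also had the highest background limit, 2.70. It was the highest array for 29.5% of all probe sets, against 14.0% for Tet2-/- replicate 5. The part of this in the T and NK cell values was not tested. Cd3e, a chain of the T-cell receptor complex, was at 1.62 to 2.16 and under background on every array, as were Cd3g, Cd4, Cd8a, Cd27 and Bcl11b. Cd3d and Ncr1 were above it on 1 array and Cd247 on 2. Cd2, Zap70, Cd28, Thy1, Klrb1c and Nkg7, named after their values were seen, were above background on all 6 arrays. Nkg7 was close to the limit, at 2.62 to 2.75. Against the 99th percentile of the same receptor probe sets, 3.61 to 4.06, only Cd28 of these passed, on Tet2-/- replicate 4 alone. Cd28, a costimulatory receptor of T cells, was at 3.32, 3.23 and 3.10 against 3.72, 3.31 and 3.97, and Thy1, a T-cell surface protein, at 2.82, 2.91 and 2.73 against 3.26, 3.07 and 3.19. Their differences were 0.45 and 0.35, and only the groups of Thy1 did not overlap. Of 12 macrophage markers 7 means were higher and 5 lower (median 0.06), and their summed level was 107.17 to 110.39 on the wild-type arrays and 111.14, 112.64 and 104.52 on the Tet2-/- arrays. Adgre1, a surface antigen of macrophages, was at 8.35, 7.86 and 8.0 against 8.64, 8.90 and 7.79, and Csf1r, the receptor for macrophage colony-stimulating factor, at 9.37, 8.75 and 8.80 against 9.47, 9.87 and 8.61. Both were highest on Tet2-/- replicate 5 and lowest on replicate 6. The part of this in the B-lineage values was not tested. Dendritic cell markers (summed 22.35 to 24.71 against 22.38 to 23.79), neutrophil (22.69 to 24.41 against 23.16 to 26.48), eosinophil (12.06 to 12.22 against 10.38 to 11.86) and mast cell markers (12.51 to 13.01 against 12.77 to 13.41) had median differences of 0.03, 0.14, -0.01 and 0.03. Flt3, Xcr1 and Clec9a of the dendritic cell list, and Epx, Prg2, Ccr3 and Il5ra of the eosinophil list, were under background on every array. Other markers of these lists, named after their values were seen, were not. Batf3 was above background on 6 arrays, Siglech and Ccr7 on 5, Zbtb46 and Clec10a on 4, and Cd209a on 2. Siglecf, a lectin of eosinophils and some macrophages, was at 5.37, 5.58 and 5.02 against 4.65, 3.58 and 4.12, a difference of -1.21 with groups that did not overlap. Clec10a, a lectin of dendritic cells and macrophages, was at 3.33, 3.44 and 3.92 against 2.39, 3.08 and 2.45, a difference of -0.92, again without overlap. Mesothelial and fibroblast markers summed to 32.15 to 36.11 against 32.93 to 35.49, with a median difference of 0.03, and the 2 erythroid markers were under background.

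**Figure D5:**
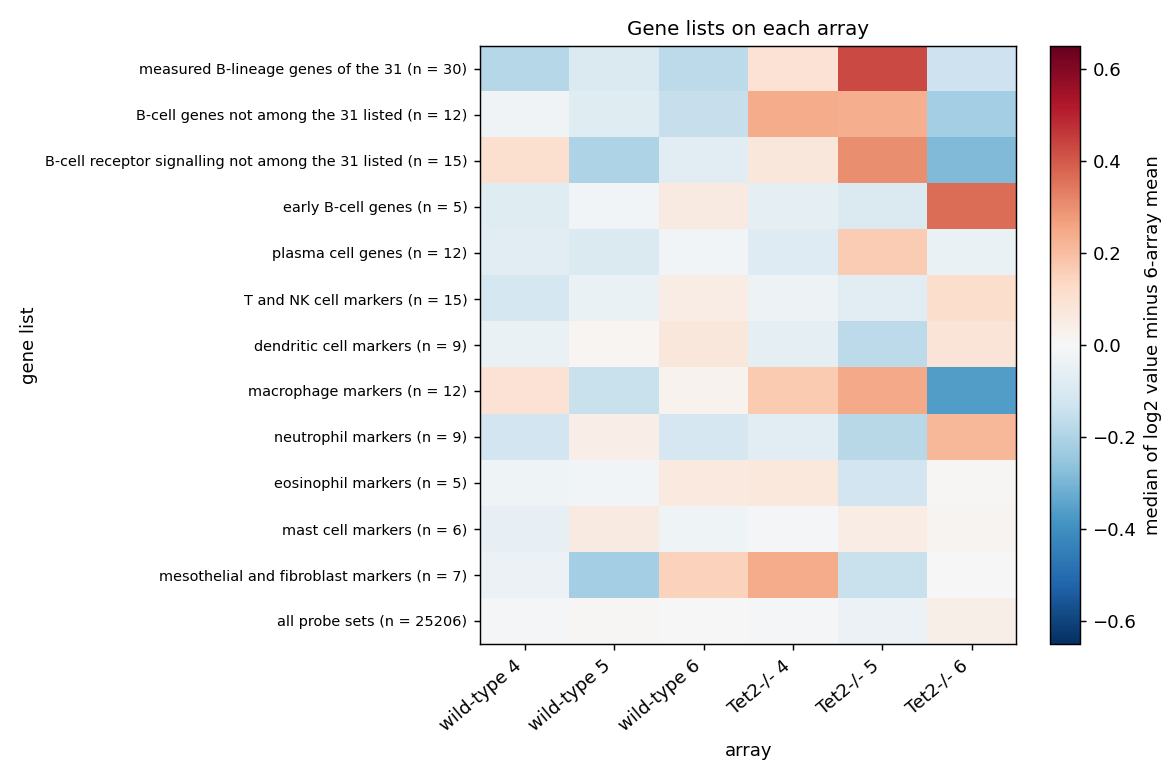
Colour shows the median, over the genes of a list (rows, with the number of genes), of the log2 value minus the gene's 6-array mean on each array (columns). The 30 measured B-lineage genes have their highest median on Tet2-/- replicate 5 (0.43), as macrophage markers do (0.24). T and NK cell markers have theirs on Tet2-/- replicate 6 (0.11), as all probe sets do (0.037).

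The profile of Cd79a over the 6 arrays was compared with those of genes outside the set. Nearness was the root-mean-square distance between log2 values, each minus the gene's own 6-array mean, over 23155 genes with a median distance of 1.08. The 8 nearest were the sialyltransferase gene St8sia6 (0.337), the membrane protein gene Tmem176b (0.381), H2-DMb2, a chain of the class II peptide-loading chaperone (0.386), the protease inhibitor gene Spink2 (0.387), the monocyte chemokine receptor Ccr2 (0.415), Plxdc2 (0.420), the B-cell attractant Cxcl13 (0.423) and Lrg1 (0.438). Within the set, Cd79b (0.329), Ighj4 (0.453) and Ms4a1 (0.497) were nearest and Stap1 (1.22) was farthest. Ccr2, present on every array, was at 6.77, 6.53 and 6.51 in wild-type and 8.12, 8.47 and 7.36 in Tet2-/- samples, so that its groups did not overlap. Cxcl13 was at 5.06, 5.03 and 5.45 against 6.32, 6.65 and 5.09, with Tet2-/- replicate 6 inside the wild-type values as for Cd79a.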

How the data were processed

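RNA of 6 samples was measured on Affymetrix whole-transcript arrays, 3 per genotype. The authors deposited log2 expression values and the submitters' processing notes name RMA and affy 1.36.1. The log2 scale was read from the values' range and that method, and whether the arrays were normalized together is not given in the sources used here. Near background RMA shrinks differences between samples. Precision is limited by having 3 arrays a group.

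Probe sets were named through the platform annotation (1 gene for 23185, several for 0, none for 2021). All names stood in RefSeq's table for GRCm38.p6. All 25206 probe sets were fitted with limma 3.58.1 in R 4.3.3 (lmFit, eBayes, two-sided, no covariate), adjusted by Benjamini-Hochberg at 0.05, and the scripts were tested on simulated data. The members, lists and rules were chosen with earlier results of these data known. All 31 listed genes were accounted for. Of other lists, Cd22, Jchain, Cd3e, Adgre1 and Csf1r, any gene past the threshold, and the 8 genes nearest to Cd79a were named by rule. Other settings were the genotype characteristic, the replicate number as a block, array weights, a variance trend with robust fitting, arrays centred on their medians, quantile normalization once more, a background filter, other background limits and leaving out each array.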

Additional observations from a re-analysis of the deposited data

How the results depend on the processing

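Grouping by the genotype characteristic took the genes higher at an unadjusted p under 0.05 from 7 to 0 and those with non-overlapping groups from 4 to 1. Over all probe sets the same shares went from 1.71% to 0.639% and from 3.33% to 2.26%. That grouping turned the differences of Vpreb3 (0.093), Stap1 (0.09), Fcer2a (-0.14), Cr2 (-0.28), Tnfrsf13c (-0.10), Cd5 (-0.043), Pax5 (-0.013) and Zbtb32 (-0.19). Array weights gave 2 probe sets past the adjusted threshold. They gave 11 B-lineage genes higher at an unadjusted p under 0.05, beside 4.12% of all probe sets, and turned Fcer2a (-0.021), Cd5 (-0.081) and Bhlhe41 (0.11). With the 99th percentile as the background limit, 8 genes rather than 13 were above it on all arrays. The cause of these shifts was not tested. Leaving out 1 array gave 0 to 19 probe sets past the adjusted threshold. The genes higher at an unadjusted p under 0.05 numbered 5 to 13, beside 1.10% to 4.96% of all probe sets. Those with non-overlapping groups also numbered 5 to 13, a count that rises by construction with fewer arrays. All Tet2-/- arrays left lay above all wild-type arrays for 13 genes without Tet2-/- replicate 6, beside 11.1% of all probe sets. Without wild-type replicate 6 they did for 8, beside 6.88%. The median difference ran from 0.17 to 0.42. Ranges that crossed 0 were -0.065 to 0.14 for Fcer2a, -0.10 to 0.20 for Cd5, -0.16 to 0.45 for Cd24a, -0.12 to 0.20 for Btk, -0.06 to 0.24 for Pou2af1, -0.10 to 0.20 for Bach2, -0.03 to 0.34 for Zbtb32, -0.15 to 0.13 for Bhlhe41 and -0.0083 to 0.65 for Fcrla. With the replicate number as a block, 0 probe sets passed and 9 genes were higher at an unadjusted p under 0.05, beside 1.84% of all probe sets. Deviations of same-numbered arrays correlated at 0.15, -0.22 and 0.11, so the numbers were not taken to pair the samples.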
